A study of Rattus norvegicus with 4 samples.

Results

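Histone genes were followed in total RNA from the inner medulla, the deepest part of the kidney, of female and male Sprague Dawley rats. Members were all gene symbols of the deposited transcript table that begin with Hist and a digit, with H2af or with H3f, together with H1f0 and H1fx, read in any letter case. The rule gave 47 histone genes of 19594 symbols, and these stand at 46 of the 35374 loci. Of the 47, 37 bear a Hist symbol, the older name of the replication-dependent genes, and are called so here. The other 10 are called replication-independent genes, or variants. The class was set by symbol alone and was not checked gene by gene. The female group was 2 pools of 4 Sprague Dawley rats and the male group 2 pools of 4 Sprague Dawley rats, bought at 13 to 15 weeks of age. Both sexes ate chow with 0.49% NaCl for 2 weeks, with no other treatment, so no other diet is compared. The age given for the diet is a range of 14 to 16 weeks. The authors joined both pools of a sex into 1 value per locus, read here as FPKM (fragments per kilobase of transcript, scaled for sequencing depth). These values therefore carry no SD, and no measure of spread between pools or rats is given. Comparisons are read with the p-value or q-value (p adjusted for the number of loci tested) of the authors' deposited table. Neither is a measure of spread.

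Histones are the proteins that DNA is wound around. The core histones H2A, H2B, H3 and H4 form the nucleosome, and the linker histone H1 binds the DNA where it enters and leaves. Replication-dependent genes lie in clusters, have no introns, are transcribed mainly while DNA is copied, and give messenger RNA that ends in a stem-loop instead of a poly(A) tail. Total RNA libraries hold such RNA, while libraries selected for poly(A) largely lack it. Variants such as the H3.3 genes, H2afz and H1f0 are transcribed also in cells that do not divide, and their messenger RNA has a poly(A) tail. Most cells of the adult inner medulla are not dividing.

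The loci that hold most of the histone signal are introduced by their promoters, shown because they set the replication-dependent genes beside the variants. Each run is the 250 bases before the gene's start from RefSeq, build GRCr8, 5′ to 3′ on the gene's strand. The highest member with a single RefSeq match was taken from each replication-dependent family above 10 FPKM, and the variants above 100 FPKM. No H1 gene above 10 FPKM had a single match, and H3f3c is named only. Capitals mark the TATA box with letters TATAAA, the box with letters CCAAT, and the octamer with letters ATTTGCAT, read on either strand, so the reverse complement is marked as well.
Hist2h2ac (RefSeq H2ac20), chr2:186469227-186469476, minus strand: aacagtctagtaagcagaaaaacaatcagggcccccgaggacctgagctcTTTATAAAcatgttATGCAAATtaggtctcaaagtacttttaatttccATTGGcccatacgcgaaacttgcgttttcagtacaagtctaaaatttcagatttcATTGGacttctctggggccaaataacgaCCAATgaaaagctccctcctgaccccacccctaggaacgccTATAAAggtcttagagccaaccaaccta
Hist1h2bq, chr17:41869342-41869591, minus strand: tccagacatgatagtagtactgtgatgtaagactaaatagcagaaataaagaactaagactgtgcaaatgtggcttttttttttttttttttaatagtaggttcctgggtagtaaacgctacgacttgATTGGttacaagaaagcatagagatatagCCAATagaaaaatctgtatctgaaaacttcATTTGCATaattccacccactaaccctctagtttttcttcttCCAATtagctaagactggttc
Hist1h4b, chr17:47175996-47176245, plus strand: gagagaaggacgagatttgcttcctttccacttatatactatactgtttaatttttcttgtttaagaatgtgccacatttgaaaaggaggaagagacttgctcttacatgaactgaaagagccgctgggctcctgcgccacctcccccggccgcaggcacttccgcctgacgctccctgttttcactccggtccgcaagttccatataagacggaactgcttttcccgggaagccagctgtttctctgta
Hist2h3c2, chr2:186525912-186526161, plus strand: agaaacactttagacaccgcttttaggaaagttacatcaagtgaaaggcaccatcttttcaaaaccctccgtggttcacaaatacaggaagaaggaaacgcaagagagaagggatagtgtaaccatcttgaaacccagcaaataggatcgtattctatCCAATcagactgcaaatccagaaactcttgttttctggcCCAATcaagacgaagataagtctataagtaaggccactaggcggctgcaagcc
H3f3b, chr10:101757637-101757886, minus strand: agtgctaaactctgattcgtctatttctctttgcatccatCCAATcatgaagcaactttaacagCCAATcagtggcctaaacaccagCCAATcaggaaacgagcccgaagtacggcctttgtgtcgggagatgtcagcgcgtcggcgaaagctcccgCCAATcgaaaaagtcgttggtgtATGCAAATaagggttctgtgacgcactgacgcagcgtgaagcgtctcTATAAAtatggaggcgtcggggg
H1f0, chr7:112473030-112473279, plus strand: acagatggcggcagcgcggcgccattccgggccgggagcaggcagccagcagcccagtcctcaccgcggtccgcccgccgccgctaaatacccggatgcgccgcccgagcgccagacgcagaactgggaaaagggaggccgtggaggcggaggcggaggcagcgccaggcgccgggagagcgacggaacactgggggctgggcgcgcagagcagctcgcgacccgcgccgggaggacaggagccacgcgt
H2afz (RefSeq H2az1), chr2:229028845-229029094, plus strand: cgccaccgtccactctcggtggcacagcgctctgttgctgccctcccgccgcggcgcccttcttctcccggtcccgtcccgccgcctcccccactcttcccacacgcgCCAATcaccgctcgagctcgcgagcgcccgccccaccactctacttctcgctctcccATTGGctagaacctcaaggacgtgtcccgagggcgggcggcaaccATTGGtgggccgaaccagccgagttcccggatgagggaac
In the Hist2h2ac run 2 TATAAA matches overlap, and in the other 6 runs no marked motifs overlap. The H1f0 and Hist1h4b runs hold no marked letters. H3f3b, a variant, holds all 3 motifs, as Hist2h2ac does.

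RefSeq promoters were matched for 37 of the 47 members, at 36 promoters. CCAAT, the box bound by the factor NF-Y, stood in 25 of 28 replication-dependent promoters (89.3%) and 4 of 8 variant promoters (50.0%), against 34.0% of all 33469 promoters of the same length. All 9 matched H2B promoters held it and neither of the 2 H4 promoters did. TATAAA, the TATA box, stood in 15 of the 28 (53.6%) and 1 of the 8 variant promoters (12.5%), against 12.9% of all promoters. The octamer ATTTGCAT, which the factor Oct-1 binds in H2B promoters, stood in 10 of the 28 (35.7%), 5 of them H2B and 5 H2A, and in 1 of 8 variant promoters, against 1.56% of all promoters. Promoters of replication-dependent genes under 1 FPKM on average held CCAAT in 18 of 20 and those at or above 1 FPKM in 7 of 8. These matches describe letters within the window, and neighbouring H2A and H2B genes can share 1 promoter region.

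Most replication-dependent genes were listed near the lower end of the scale. How reads shared by similar gene copies were divided between loci was not given. A low value or a 0 may therefore not be low expression of that gene. Of their 36 loci, 2 averaged at least 100 FPKM over both sexes, 5 were between 10 and 100, 5 between 1 and 10, 18 above 0 but under 1, and 6 were listed at 0 in both sexes. The variants were the reverse, with 4 of 10 loci above 100 FPKM on average, 4 between 10 and 100, and H2afb3 alone listed at 0. Over all 48 rows naming a replication-dependent gene the summed level was 1018 FPKM in females and 1023 in males. That was 0.144% of all summed FPKM in females and 0.139% in males. The variant rows summed to 1472 FPKM in females and 1468 in males. A single row, that of Hist2h2aa3 and Hist2h2ac, held 55.0% of the replication-dependent sum in females and 63.2% in males. In bulk RNA such a sum cannot tell fewer cells of a type from less RNA per cell.

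**Figure D1:**
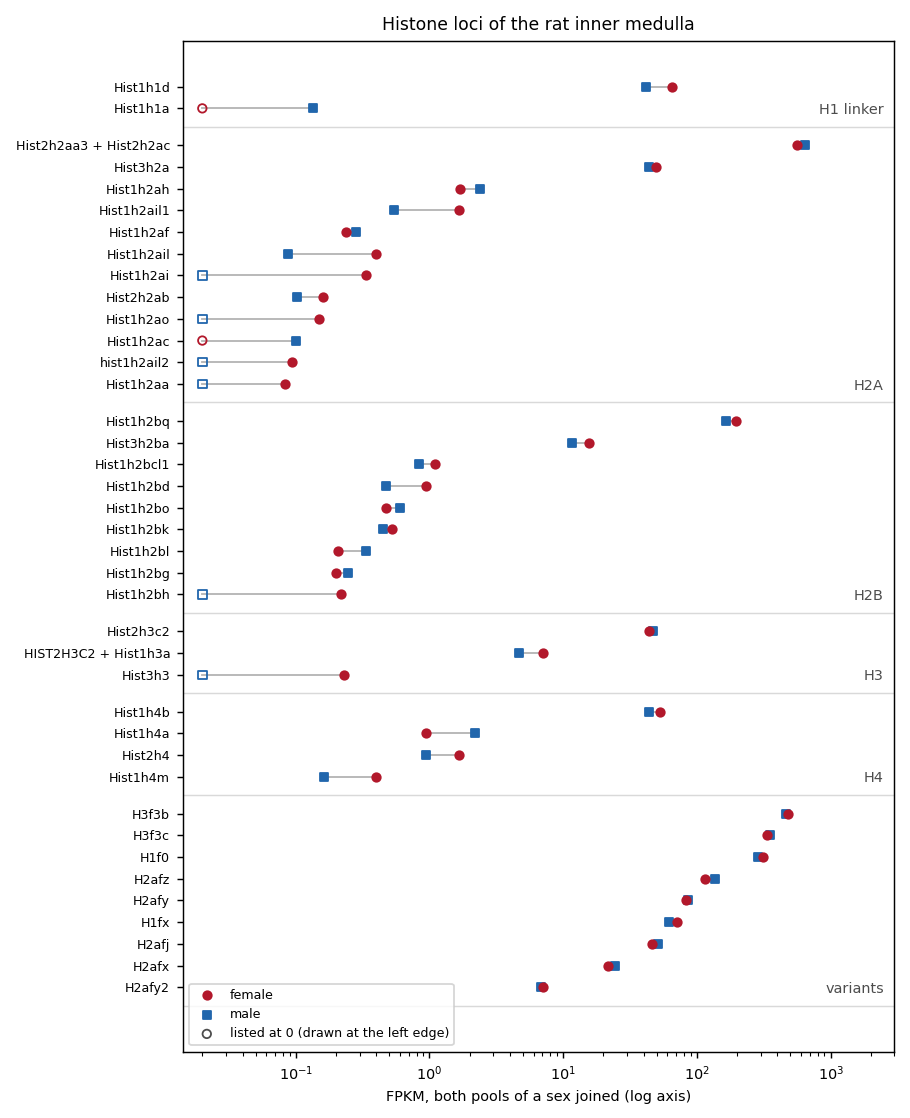
FPKM (log axis) of each histone locus above 0 in at least 1 sex, with females as red circles and males as blue squares; open symbols at the left edge are values listed at 0. The symbols of both sexes lie close together for the variants and spread apart for loci near or under 1 FPKM.

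Within H1, H2A and H3 the summed FPKM of variants and of replication-dependent rows was set side by side. FPKM is per length, but how reads shared by similar copies were divided was not given. The highest replication-dependent row of each of these families lies in an interval listed for other loci as well. The shares below are therefore shares of listed FPKM and may not be shares of expression. The H3f3 genes, whose protein H3.3 enters nucleosomes outside DNA replication, summed to 815 FPKM in females and 814 in males. Replication-dependent H3 rows summed to 54.5 FPKM in females and 54.1 in males, so the variant part of H3 was 93.7% in females and 93.8% in males. In H1 the variant part was 84.9% in females and 88.9% in males. A single Hist1h1d row held 96.0% of the replication-dependent H1 sum in females and 95.6% in males. Which gene that row counts is uncertain, so the H1 share is uncertain as well. In H2A it was 30.6% in females and 30.5% in males. These shares count rows named for a histone gene alone, and a histone gene whose locus has no symbol or a newer symbol is outside them.

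None of the 28 histone genes that the authors tested passed the call of q under 0.05 by the authors' deposited table, where 2.34% of all 20307 tested loci were called, 1.63% higher and 0.719% lower in females. At an unadjusted p under 0.05 there was 1 of 28, against 9.77% of tested loci. Female over male, the median log2 ratio was 0.15 over the 28 genes and -0.0048 over all tested loci above 0 in both sexes. With the members averaging under 1 FPKM left out, it was 0.06 over 22 genes. Of the 28, 17 were higher and 11 lower in females, and 14 lay within 0.25 of 0 on the log2 scale. With the joined H2A locus counted once, 17 of 27 were higher and 10 lower, and 13 lay within 0.25. Among all tested loci 49.2% were higher in females, and 11634 of the 20037 above 0 in both sexes lay within 0.25. A missed threshold does not show that the sexes are alike, since the spread between pools is not analysed here.

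The linker histone H1 condenses chromatin. Hist1h1d was at 65.6 FPKM in female pools and 41.4 in male pools, 1.58-fold apart, with p = 0.00585 and q = 0.143 by the authors' deposited table. This was the lowest p and the lowest q among the histone genes, and it did not pass. Its locus (chromosome 17, 45487757 to 45666069, build rn5) has an interval that is listed for 8 other loci as well, the iron regulator Hfe among them. A second row of the same symbol and interval was at 2.72 FPKM in female pools and 1.75 in male pools. In RefSeq Hist1h1d is an older name of 2 genes, H1f4 and H4f3, so which gene was counted is uncertain. By its symbol the second would be an H4 gene, and the family was not checked. Hist1h1a was listed at 0 in females and at 0.135 FPKM in males, and Hist1h1b at 0 in both, and neither was tested. The linker variants were high. H1f0, which accumulates in differentiated, non-dividing cells, was at 314 FPKM in female pools and 286 in male pools. H1fx, a distant relative of the other H1 genes, was at 71.2 FPKM in female pools and 62.3 in male pools. Their q-values were 0.999 and 0.976 in the authors' deposited table, and their log2 ratios 0.14 and 0.19.

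H2A forms a dimer with H2B at the outer face of the nucleosome. The locus that joins Hist2h2aa3 and Hist2h2ac (chromosome 2, 217846019 to 217913058, rn5) was at 560 FPKM in female pools and 647 in male pools, a log2 ratio of -0.21 with q = 0.941 by the authors' deposited table. It was the highest histone locus of the table, above 99.3% of all loci that were not at 0. As both symbols share 1 value, the 2 genes cannot be told apart. Hist3h2a (chromosome 10, 45054233 to 45055784, rn5) was at 49.6 FPKM in female pools and 44.1 in male pools.

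The other 11 replication-dependent H2A loci were at most 2.04 FPKM on average. Hist1h2ah was at 1.69 FPKM in female pools and 2.39 in male pools. Hist1h2ail1 was at 1.66 FPKM in female pools, against 0.542 in male pools, 3.07-fold apart. Hist1h2ail, named after its values were seen, was at 0.397 FPKM in female pools, against 0.0870 in male pools, 4.57-fold apart. A second, untested Hist1h2ail row was listed at 0 in female pools and at 0.0897 FPKM in male pools. With its rows summed the log2 ratio of Hist1h2ail was 1.17 in place of 2.19, and with a pseudocount of 1 it was 0.36. Neither gene passed, with q = 0.680 and q = 0.963 by the authors' deposited table. Both symbols read as H2A, but their intervals are 411 bases long, as those of Hist1h3b and Hist3h3 are, while those of 8 other H2A loci are 393. RefSeq gives Hist1h2ail1 the further name H3 histone, so their family is uncertain. Hist1h2aa, a testis form, was listed at 0.0829 FPKM in female pools and 0 in male pools.

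Among the H2A variants the sexes differed by at most 0.25 on the log2 scale. H2afz encodes H2A.Z, which marks promoters, and was at 115 FPKM in female pools and 136 in male pools, with p = 0.253 and q = 0.919 by the authors' deposited table. H2afy encodes a macroH2A, a large form with an added globular domain linked to silent chromatin, and was at 82.2 FPKM in female pools and 86.4 in male pools. Its relative H2afy2 was at 7.11 FPKM in female pools and 6.79 in male pools. H2afx, the form that is phosphorylated at DNA breaks, was at 21.5 FPKM in female pools and 24.5 in male pools. H2afj was at 45.9 FPKM in female pools and 51.5 in male pools, with a second row listed at 0 in both. Values of H2afz, H2afy, H2afj and H2afx were lower in females and that of H2afy2 higher, each by less than 1.19-fold. H2afb3, a testis form, was listed at 0 in both sexes.

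In the H2B family Hist1h2bq led with 196 FPKM in female pools and 164 in male pools, 1.20-fold apart with q = 0.999 by the authors' deposited table. It shares the interval of Hist1h1d, and a second row (HIST1H2BQ) elsewhere on chromosome 17 was at 0.490 FPKM in female pools and 0.453 in male pools. Hist3h2ba was at 15.6 FPKM in female pools and 11.7 in male pools (q = 0.805 by the authors' deposited table). Next in level was Hist1h2bcl1, at 1.10 and 0.834 FPKM in females and males. It and the other 8 H2B genes averaged under 1 FPKM, and 2 of them, Hist1h2ba of testis and Hist3h2bb, were listed at 0 in both sexes. Of 6 tested H2B genes 5 were higher in females, with none called.

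H3 and H4 build the central tetramer. Hist2h3c2 was at 43.5 FPKM in female pools and 46.6 in male pools (q = 0.999 by the authors' deposited table), in the same interval of chromosome 2 as the joined H2A locus. The locus joining HIST2H3C2 and Hist1h3a on chromosome 17 was at 7.12 FPKM in female pools and 4.65 in male pools. Hist3h3, whose human counterpart is a testis form, was at 0.229 FPKM in female pools but listed at 0 in male pools. Summed over its 3 rows, Hist2h3c2 had a log2 ratio of 0.00058 where its main row had -0.10, so its direction depends on the rows taken.

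The variant H3 genes were the highest of the variants. H3f3b was at 481 FPKM in female pools and 463 in male pools, a log2 ratio of 0.06. The locus named H3f3c (chromosome 13, 104089839 to 104101789, rn5) was at 334 FPKM in female pools and 351 in male pools, a log2 ratio of -0.07. Both had q = 0.999 by the authors' deposited table. The name H3f3c is in doubt. The genes listed beside this locus in the table also neighbour H3f3a in RefSeq, and none of those compared neighbours RefSeq's H3f3c, a pseudogene.

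In H4 one gene stood above the rest. Hist1h4b (chromosome 17, 58943975 to 58948418, rn5) was at 53.4 FPKM in female pools and 43.6 in male pools, a log2 ratio of 0.29 with p = 0.0865 and q = 0.653 by the authors' deposited table. The same symbol in capitals stands on 3 more rows. These were at 5.42 and 2.84, at 1.81 and 1.46, and at 1.61 and 0.773 FPKM in females and males. All 4 rows were higher in females, but H4 copies are near-identical in sequence, so reads may have been divided between them. Hist1h4a went the other way, at 0.936 FPKM in female pools and 2.18 in male pools (q = 0.916 by the authors' deposited table). Hist2h4 was at 1.65 and 0.947 FPKM in females and males. Hist2h4a was listed at 0 in both sexes on each of its 5 rows.

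Across the replication-dependent families more genes were higher in females than lower, with none called. Of 19 tested genes 13 were higher in females and 6 lower, with a median log2 ratio of 0.29. With the joined H2A locus counted once, 5 were lower and the median was 0.34. The 9 tested variants had a median of -0.07, with 4 higher and 5 lower in females. The direction went with level over the whole table. Among all tested loci under 1 FPKM on average, 59.6% were higher in females with a median of 0.20, and among those above 100 FPKM 35.5% with a median of -0.05. Of the replication-dependent loci 5 of 6 tested ones under 1 FPKM were higher in females, 3 of 5 between 1 and 10, 4 of 5 between 10 and 100, and 1 of 2 above. Of all tested loci, 52.9% of those between 1 and 10 FPKM and 40.8% of those between 10 and 100 were higher in females. The difference between the 2 classes was not tested. Female pools together had 79575617 read pairs and male pools 71530192, and the part of depth in these directions was not tested.

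**Figure D2:**
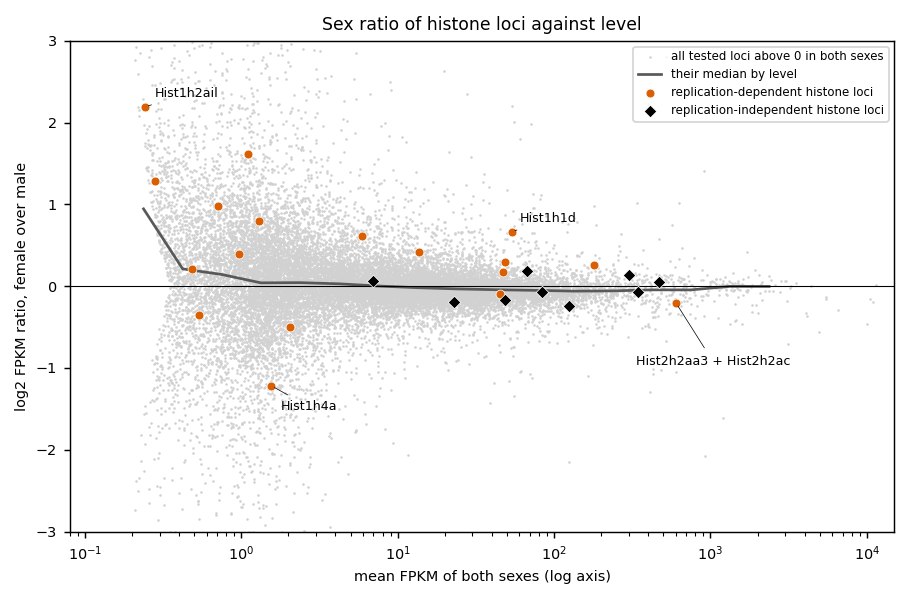
Log2 FPKM ratio of female over male (vertical axis, cropped) against mean FPKM of both sexes (log axis) for all tested loci above 0 in both sexes in grey, replication-dependent histone loci as orange circles and variants as black diamonds; the line is the median of all tested loci by level. Variants lie within 0.25 of 0, and orange circles spread from -1.22 to 2.19, most widely at low level.

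The level of a replication-dependent locus went with the width of its interval. Of 36 loci, 21 spanned at most 450 bases, with widths from 312 to 411 that mostly repeat within a family (312 for H4, 381 for H2B, 393 for H2A), and these averaged at most 2.04 FPKM with a median of 0.168. The 15 wider loci had a median of 5.89 FPKM, and all 7 loci of at least 10 FPKM were among them. Yet 6 of these 15 averaged under 1 FPKM, as did 18 of the 21 narrow loci. An assembler's identifier, in place of an annotation's, stood on 6 of the 21 narrow loci and 12 of the 15 wider ones. A wide interval can hold several genes, and 11 of the 46 chosen loci share theirs with another locus. The part of the authors' assembly in these levels was not tested.

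**Figure D3:**
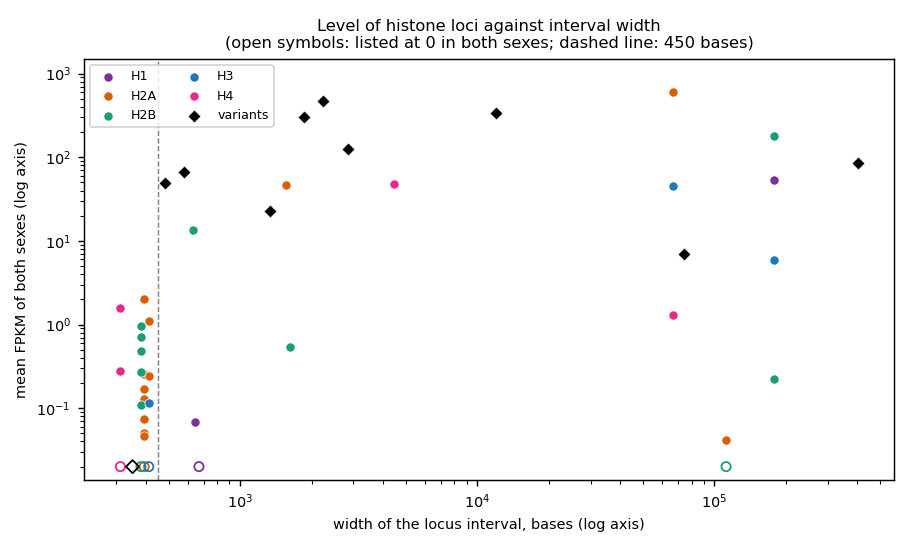
Mean FPKM of both sexes (log axis) against the width of the locus interval in bases (log axis) for each histone locus, coloured by family, with open symbols for loci listed at 0 in both sexes. All replication-dependent loci left of the dashed line at 450 bases lie at or under 2.04 FPKM.

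By chromosome, 27 of the 37 replication-dependent genes were listed on chromosome 17 in 2 groups. The group from 45214779 to 45672199 (rn5) had 11 genes with a median of 1.10 FPKM and 6 genes at or above 1 FPKM. The group from 58624879 to 58950698 had 16 genes with a median of 0.205 FPKM, and Hist1h4b alone was at or above 1 FPKM. Chromosome 2 held 5 genes, of which 3 were listed at 10 FPKM or more. These include Hist2h2aa3 and Hist2h2ac, which share 1 value and cannot be told apart. Chromosome 10 held 4 genes, of which 2 reached 10 FPKM.

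Genes that act with histones were read beside them as lists. Of 18 tested genes of histone mRNA processing 9 were higher and 9 lower in females, with none called and a median log2 ratio of 0.00. The highest were Srrt, a partner of the cap-binding complex, at 47.7 FPKM in female pools and 52.3 in male pools, and Ncbp2, a subunit of that complex, at 34.3 and 34.5. Slbp, which binds the stem-loop, was at 24.3 FPKM in female pools and 28.6 in male pools, with q = 0.854 by the authors' deposited table. Npat, the activator of replication-dependent histone transcription, was at 4.09 and 4.07 FPKM in females and males. Slbp and Npat were added after their values were seen. Of 22 tested histone chaperones, which escort histones to and from DNA, 7 were higher and 15 lower in females, with none called and a median of -0.02. Rbbp7 was at 126 FPKM in female pools and 133 in male pools, and Nap1l1 at 73.5 and 82.1. Nasp, a chaperone of H1 and H3 named for its q after its values were seen, was at 10.3 FPKM in female pools and 17.5 in male pools (q = 0.0867 by the authors' deposited table).

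The highest DNA replication gene was Pcna, the sliding clamp of the polymerases, at 70.8 FPKM in female pools and 79.0 in male pools. Mcm7, part of the replicative helicase, was at 19.3 and 17.6 FPKM. None of 24 was called, with 8 higher and 16 lower in females and a median log2 ratio of -0.15. Mitosis genes were at or under 3.33 FPKM on average. Birc5, or survivin, was at 3.20 FPKM in female pools and 3.47 in male pools, and the kinase gene Cdk1 at 2.44 and 3.53. None of the 17 tested mitosis genes was called, and all 17 were lower in females, with a median of -0.54. Over all tested loci, 49.2% were higher in females. Replication-dependent histone genes and these dividing-cell genes thus had medians of opposite sign, and the difference was not tested.

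**Figure D4:**
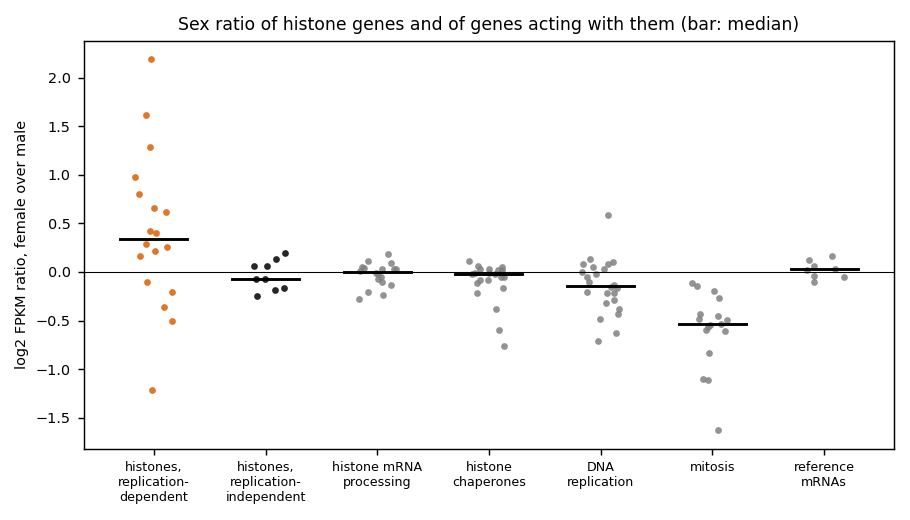
Log2 FPKM ratio of female over male for each tested locus of the histone classes and of 5 gene lists, with the median as a bar. Medians are 0.34 for replication-dependent loci, -0.07 for variants, 0.00 for histone mRNA processing, -0.02 for chaperones, -0.15 for DNA replication, -0.54 for mitosis and 0.03 for reference messenger RNAs.

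Defining markers of the labelled tissue were present, with the water channel Aqp2 at 8463 FPKM in female pools and 11693 in male pools and none of 7 tested inner medulla markers called. Libraries had 34552171 to 41945343 read pairs. Markers of other cells were read as well. Of 7 tested proximal tubule markers 5 were called higher in females and Miox and Pck1 were not called, with a summed level of 959 FPKM in females and 168 in males over 8 markers, of which Kap held 910 and 131. Of 7 tested leukocyte markers Cd3e of T cells was called, at 2.15 FPKM in female pools and 0.651 in male pools. Of the 7, 6 were higher in females and Cd79b was lower. The leukocyte list summed to 337 FPKM in females and 254 in males, of which Lyz2, not called, held 304 and 226. Ms4a1 was at 0 in both. Of 5 thick limb markers Egf was called higher in females. Of red blood cell markers none was called, the row of Hba1 and Hba2 being at 761 FPKM in female pools and 550 in male pools. The part of any of these cells in the histone values was not tested.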

How the data were processed

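Members, lists and tests were chosen with earlier results of these data known. The submitters' processing notes list build rn5, Cufflinks 2.2.1 and TopHat2 2.1.1 beside StringTie, cutadapt and FastQC, and give none of them a role. Per the labels' protocols, the kit was a stranded one for total RNA, while the labels' descriptions name the libraries with the ending mRNA. Per the file headers, the deposited table has 1 value per sex, for which 2 pools were joined. No header names the unit. The deposited values were read here as FPKM, an inference from the Cuffdiff layout and from values that are not whole and sum to 706268 in females and 736225 in males. The p-value and q-value per locus were deposited by the authors, and q equals a Benjamini-Hochberg adjustment over 20307 tested loci to within 5.26e-07. Counts of read pairs per library were also deposited by the authors. The annotation and any use of strand in counting were not given in the sources used here, so reads of overlapping genes may be mixed.

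Log2 ratios are female over male with no pseudocount. With 1 value per sex limma could not be run, and no test was added. A locus was called at q under 0.05. Of several rows for a symbol the one of highest summed FPKM was taken, which concerned 8 members, and 2 loci join symbols. Of the 47 members 19 were not tested by the authors, the highest of them at 0.272 FPKM. A value of 0 can be a failed estimate: 7 members were at 0 in both sexes, 2 in females alone and 6 in males alone. Deposited starts were read as counting from 0, since most short loci then have lengths that are multiples of 3, and 1 was added. All variants are named, and of the replication-dependent genes the 3 highest per family and the 5 of largest ratio each way at a mean of at least 1 FPKM, besides some of those at 0 or joined. RefSeq (GRCr8) matched 19 members by symbol and 21 by 1 synonym, and promoters of 37 of these were used. Hist1h3a and Hist2h4 had no single promoter entry, and H3f3c was left out by choice because its name is in doubt. Its positions were not compared with rn5. Promoter positions printed are GRCr8. Row choice and adjustment were tested on simulated data. Python 3.11.15 with pandas 2.3.3 and numpy 2.4.6 was used.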

Additional observations from a re-analysis of the deposited data

How the results depend on the processing

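No histone gene was called at q under 0.01 or under 0.1, with joined loci left out, or with q adjusted again over loci averaging 1 or 5 FPKM and more (lowest q 0.143 and 0.161). The median log2 ratio of replication-dependent genes ran from 0.26 with a pseudocount of 1 to 0.40 without joined loci. That of variants ran from -0.07 to -0.01, the last with both sexes scaled to one sum, and that of all histone genes from 0.06, with members under 1 or under 5 FPKM left out, to 0.21, with one sum. Of 206 values of single genes under the alternatives 205 kept their direction, and Hist2h3c2 turned to 0.00058 with its rows summed. Many of the 206 could not have turned. A pseudocount or a level filter cannot change a gene's direction, and leaving out joined loci changes only genes at such loci. The count is therefore no measure of how stable the directions are. Counting a joined locus once was added after seeing the data. No paired analysis was possible because the table has 1 value per sex, and leaving out a pool was not run for the same reason. Depth per sex is joined, so no counting interval could be set, and most histone genes under 1 FPKM were not tested.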

Other observations

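A pair of loci with no symbol, beside and within the histone genes of chromosome 2, were picked after their values were seen. On chromosome 2 a locus of 259 bases (217843870 to 217844128, rn5), which ends before the start of Hist2h2ab at 217845513, was at 3.27 FPKM in female pools but listed at 0 in male pools, with q = 0.00391 by the authors' deposited table. It has no symbol, and a value of 0 can be a failed estimate, so no fold was computed. Another unnamed locus, in the interval of the joined H2A locus, was at 7.49 FPKM in female pools and 4.92 in male pools with q = 0.976 by the authors' deposited table. Cenpa, the histone H3 form of centromeres, lies outside the naming rule and was at 0.548 FPKM in female pools and 0.502 in male pools (q = 0.999 by the authors' deposited table). The oocyte and testis linker genes H1foo, H1fnt and Hils1 were listed at 0 in both sexes.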
